A study of Mus musculus with 4 samples.

Results

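Polyamine metabolism was examined through 9 genes, those for the enzymes that make spermidine and spermine (*Odc1*, *Amd1*, *Srm*, *Sms*), the enzymes that turn them over (*Smox*, *Sat1*), the antizymes (*Oaz1*, *Oaz2*) and an antizyme inhibitor (*Azin1*). They were taken by gene name, and each name was found once among the 22252 gene names of the count tables, and all 9 had counts above 0 in every library. The data were RNA-seq of gastrocnemius muscle, taken from males of the C57BL/6J strain at 7 weeks of age. Lean GRf/f (*Lep*+/+, Cre-/-), lean GRmKO (*Lep*+/+, Cre+/-), *ob/ob* GRf/f (Lepob/ob, Cre-/-) and *ob/ob* GRmKO (Lepob/ob, Cre+/-) mice were compared, and all 4 groups carried the floxed glucocorticoid receptor (GR) allele on both chromosomes (Flox+/+). Cre was driven by the *Acta1* promoter and removed exon 3 of *Nr3c1*, the GR gene, in myofibers, so that the other cells of the muscle kept GR. Leptin deficiency makes *ob/ob* mice obese. The RNA of 3 mice was pooled for each group and sequenced as 1 library, so the spread between mice is not known, and no test against it was possible.

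Polyamines are small, positively charged molecules that bind RNA, DNA and proteins and are needed for growth and for translation. Ornithine decarboxylase makes putrescine, and aminopropyl groups from decarboxylated S-adenosylmethionine are then added to give spermidine and spermine. The cell holds their levels in narrow limits by feedback, since polyamines block translation of *Amd1* and promote translation of the antizymes, which bind ornithine decarboxylase and send it to the proteasome. In skeletal muscle, ornithine decarboxylase responds to androgens, and spermine oxidase has been linked to the upkeep of fiber size.

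The feedback elements can be read in the transcripts themselves, and are shown because the counts below measure messenger RNA and not the proteins that these elements control. The antizyme genes hold a stop codon inside the coding frame, where ribosomes must shift frame when polyamines are plentiful. The 30 bases around it were taken from transcripts ENSMUST00000179620 (*Oaz1*) and ENSMUST00000154502 (*Oaz2*) of GENCODE M21, with the stop codon in capitals.
Oaz1: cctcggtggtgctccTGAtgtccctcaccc
Oaz2: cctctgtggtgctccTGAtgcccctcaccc
The transcripts listed for both genes in the count tables, ENSMUST00000180036 and ENSMUST00000153700, leave out 1 base of this codon, at chr10:80828295-80828295 and chr9:65686272-65686272 (GRCm38), so that the annotated frame reads through.
Oaz1, as listed: cctcggtggtgctccgatgtccctcaccc
Oaz2, as listed: cctctgtggtgctccgatgcccctcaccc
In the *Amd1* leader, a short upstream reading frame opens 14 bases from the start site, at chr10:40302155-40302175 on the minus strand (GRCm38.p6). It has 6 codons before its stop, and its start and stop codons are in capitals.
Amd1 upstream reading frame: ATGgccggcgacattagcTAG

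*Amd1*, *Smox* and *Odc1* were the members that differed most between GRmKO and GRf/f muscle in lean mice (below), and their promoters are therefore shown. Each sequence runs from 250 bases before to 50 bases after the RefSeq start site (GRCm38.p6), at chr10:40302139-40302438 on the minus strand for *Amd1*, and at chr2:131491612-131491911 and chr12:17544623-17544922 on the plus strand for *Smox* and *Odc1*. Capitals mark matches to the motifs searched.
Amd1: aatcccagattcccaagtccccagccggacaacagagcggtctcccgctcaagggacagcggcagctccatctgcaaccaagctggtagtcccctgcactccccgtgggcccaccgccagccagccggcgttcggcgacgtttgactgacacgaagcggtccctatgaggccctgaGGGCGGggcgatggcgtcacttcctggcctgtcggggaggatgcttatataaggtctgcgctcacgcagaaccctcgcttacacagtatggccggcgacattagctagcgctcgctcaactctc
Smox: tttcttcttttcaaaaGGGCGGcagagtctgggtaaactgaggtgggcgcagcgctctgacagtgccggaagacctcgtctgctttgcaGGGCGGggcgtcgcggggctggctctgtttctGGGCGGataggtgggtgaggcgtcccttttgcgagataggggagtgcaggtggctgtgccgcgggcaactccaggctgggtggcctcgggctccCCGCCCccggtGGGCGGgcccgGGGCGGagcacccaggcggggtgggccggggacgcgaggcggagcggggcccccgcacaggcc
Odc1: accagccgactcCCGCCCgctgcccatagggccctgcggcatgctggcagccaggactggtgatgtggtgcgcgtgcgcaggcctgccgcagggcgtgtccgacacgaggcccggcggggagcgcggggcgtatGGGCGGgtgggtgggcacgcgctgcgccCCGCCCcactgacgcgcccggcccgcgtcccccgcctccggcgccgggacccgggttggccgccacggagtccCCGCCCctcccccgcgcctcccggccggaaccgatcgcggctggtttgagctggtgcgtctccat
The motifs were an E-box (CACGTG, the site of *Myc* and *Max*), a glucocorticoid response hexamer (AGAACA), a cAMP response element (TGACGTCA), a TATA box (TATAAA, given strand) and a GC box (GGGCGG), on both strands unless stated. The GC box was the only motif matched in these 3 promoters, at 1 position in *Amd1*, 6 in *Smox* and 4 in *Odc1*. A GC box was present in 35.7% of the 32851 promoters of the same length. The E-box was present in 7.15% of them, the response hexamer in 19%, the cAMP response element in 1.79% and the TATA box in 8.32%. Among the other members with a promoter in the table, the response hexamer occurred once in *Sat1* and once in *Oaz2*, the E-box in 1 of 2 promoters of *Sms*, the TATA box in *Oaz1*, and GC boxes in *Sms*, *Sat1* and *Oaz2*. A match is a description of letters, and the lack of one says only that these letters are not in this window.

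The libraries held 19897754 to 20959781 expected counts, of which the 50 most abundant genes took 45.3% to 48.3%. Levels are given as CPM, counts scaled to one common total per library, over the 14206 genes found above 0 in all 4 libraries, and intervals are 95% and cover counting error only. The level of *Nr3c1* was 125 CPM in lean GRf/f, 67.1 in lean GRmKO, 102 in *ob/ob* GRf/f and 39.2 in *ob/ob* GRmKO muscle. Its row counts the whole transcript, of which 1 exon was removed, and non-myofiber cells kept the gene. The GR target *Fkbp5* stood at 89.0, 22.9, 106 and 26.1 CPM in the same order, so both genes were lower in the GRmKO library of each background. All 5 myofiber markers were present in every library, with a sum of 95427 to 111500 CPM. In bulk RNA, fewer cells of a type and less RNA per cell cannot be told apart.

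*Amd1* varied most among the members, 8.42-fold between the highest and the lowest library. It encodes S-adenosylmethionine decarboxylase, which supplies the aminopropyl donor for spermidine and spermine (chr10:40287458-40302186, minus strand). Its level was 2051 CPM (2032 to 2071) in lean GRf/f muscle, from 42493 counts, which placed it 45th by count in that library. It was 935 CPM (922 to 949) in lean GRmKO, 415 (406 to 423) in *ob/ob* GRf/f and 244 (237 to 250) in *ob/ob* GRmKO muscle, where it ranked 383rd. Both lean libraries thus lay above both *ob/ob* libraries, the GRmKO library lay below the GRf/f library in each background, and no counting intervals overlapped. *Amd2*, a single-exon copy whose transcript is 99.56% identical to that of *Amd1* over 3204 aligned bases, could share reads with it. The counts assigned to *Amd2* were 0.114% to 0.180% of those of *Amd1*.

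*Smox*, which encodes spermine oxidase, had the next widest range, 6.72-fold, and the same order of libraries. Spermine oxidase converts spermine back to spermidine and releases hydrogen peroxide (chr2:131491496-131525922, plus strand). Its level was 341 CPM (333 to 349) in lean GRf/f, 147 (142 to 153) in lean GRmKO, 102 (97.3 to 106) in *ob/ob* GRf/f and 50.7 (47.7 to 53.9) in *ob/ob* GRmKO muscle. The synthetic gene *Amd1* and the catabolic gene *Smox* therefore ranked the 4 libraries alike, although they act at different steps. *Smox* has 11 annotated protein-coding transcripts and its row may represent 1 of them, which was not resolved here.

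*Odc1*, for ornithine decarboxylase, the first and highly regulated enzyme of the pathway (chr12:17544794-17551505, plus strand), followed another order. Its level was 179 CPM (174 to 185) in lean GRf/f, 114 (110 to 119) in *ob/ob* GRf/f, 84.5 (80.6 to 88.5) in *ob/ob* GRmKO and 80.9 (77.0 to 84.9) in lean GRmKO muscle. Both GRmKO libraries were low, and their counting intervals overlapped. *Odc1* has 1 annotated protein-coding transcript.

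The aminopropyltransferases, which add the groups that *Amd1* supplies, changed in opposite directions with obesity in both genotypes. With GR deletion in lean mice, neither differed beyond counting error. *Srm*, for spermidine synthase, was at 20.5 CPM (18.7 to 22.6) in lean GRf/f, 18.1 (16.3 to 20.1) in lean GRmKO, 17.0 (15.4 to 18.9) in *ob/ob* GRf/f and 11.8 (10.4 to 13.3) in *ob/ob* GRmKO muscle. Only the interval of the *ob/ob* GRmKO library was apart from those of the other 3, which overlapped. The interval of the change from lean to *ob/ob* GRf/f muscle, log2 -0.27 (-0.47 to -0.06), nevertheless excluded 0. *Sms*, for spermine synthase, was 61.5 CPM (58.3 to 65.0), 60.5 (57.2 to 64.0), 78.4 (74.7 to 82.3) and 106 (102 to 111) in the same order of libraries. The lean libraries overlapped, and the *ob/ob* GRmKO library was the highest. The slow fiber markers, 9 genes, summed to 582, 735, 1240 and 1681 CPM in that order, with none at 0, and their part in the levels of *Sms* was not tested.

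*Sat1*, for spermidine/spermine acetyltransferase, which tags polyamines for export or oxidation, split the libraries by background alone. Its level was 21.4 CPM (19.5 to 23.5) in lean GRf/f and 21.7 (19.7 to 23.8) in lean GRmKO muscle, and 10.8 (9.43 to 12.2) and 11.2 (9.84 to 12.7) in the *ob/ob* libraries. The GRf/f and GRmKO intervals overlapped within each background, and the lean and *ob/ob* intervals did not. The erythroid markers, 7 genes with none at 0, summed to 2234 and 2131 CPM in the lean and to 972 and 873 CPM in the *ob/ob* libraries. Macrophage and leukocyte markers, 7 genes with none at 0, summed to 472 and 596 against 297 and 216 CPM. Their part in the difference of *Sat1* was not tested.

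In CPM, both antizymes varied less between libraries than any of the enzymes. This ranking was not recomputed under the other scalings and may not hold there. In GRmKO muscle the obesity change of *Oaz2* reached log2 0.48 under them, and that of *Srm* shrank to -0.41. *Oaz1* was 274 CPM (267 to 281) in lean GRf/f, 304 (297 to 312) in lean GRmKO, 233.0 (227 to 240) in *ob/ob* GRf/f and 243 (236 to 249) in *ob/ob* GRmKO muscle, a 1.31-fold range. *Oaz2* was 153 CPM (148 to 159), 199 (193 to 205), 166 (161 to 172) and 240 (233 to 246) in the same order, and was higher in the GRmKO library of each background. *Azin1*, whose protein resembles ornithine decarboxylase and draws antizyme away from it, lay between 34.6 and 36.3 CPM in all 4 libraries. Its highest library was 1.05-fold above the lowest in CPM, which is within counting error. Under other scalings its change with obesity in GRmKO muscle reached log2 0.29. *Azin1* overlaps Gm49077 on the opposite strand, and whether strand was used in counting was not given in the sources used here.

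**Figure D1:**
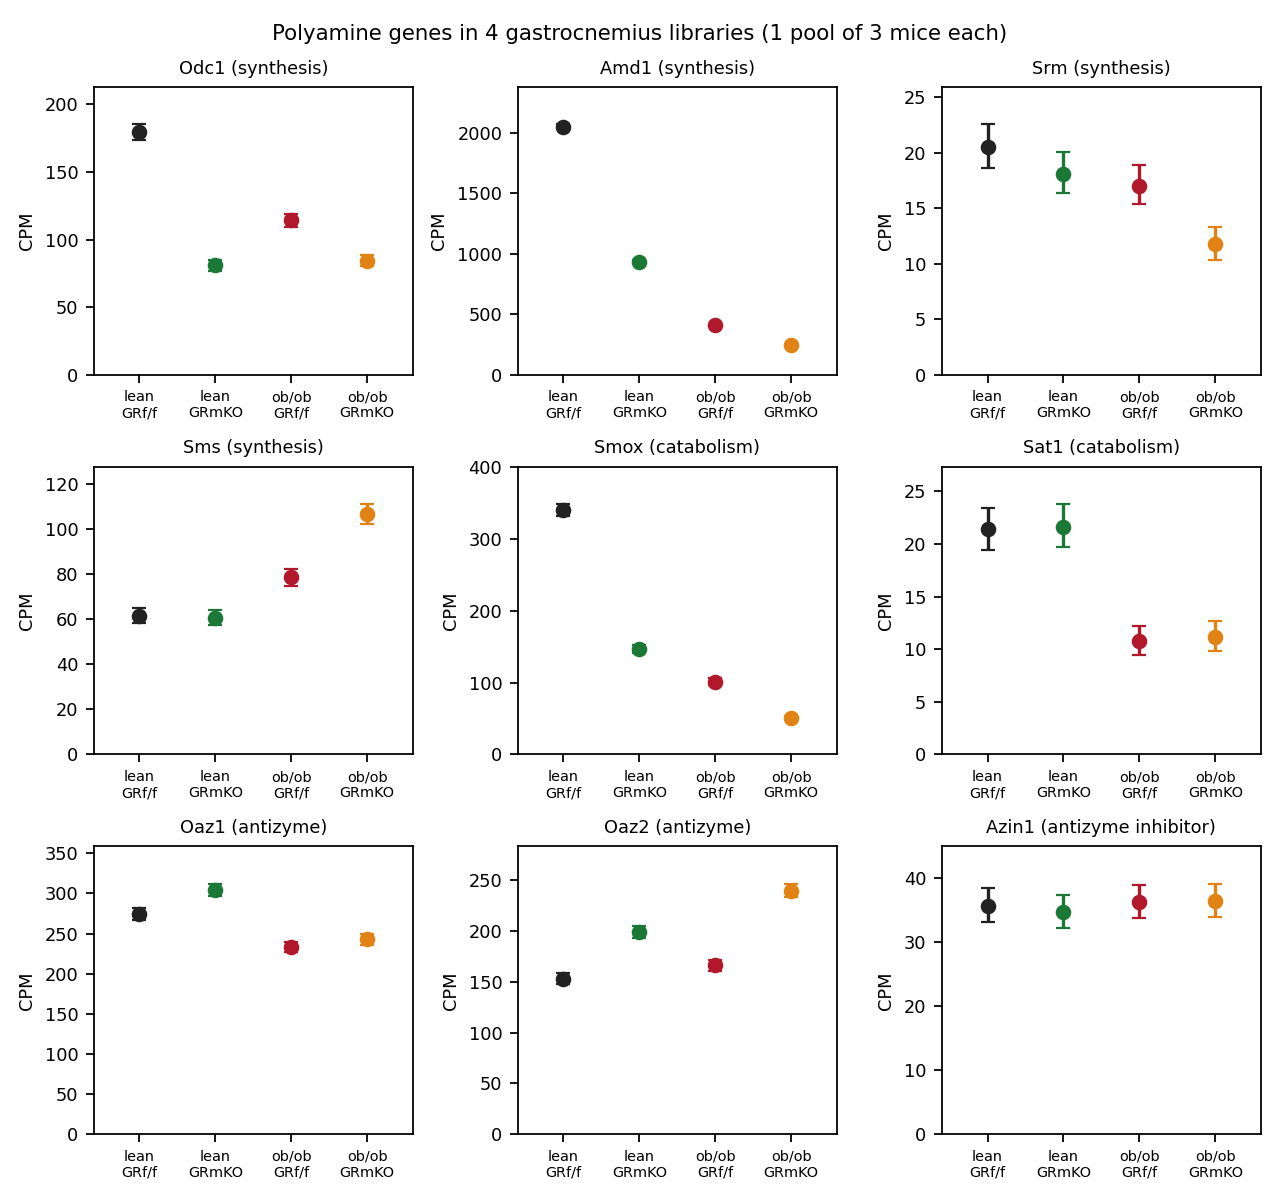
Level of each of the 9 genes (CPM, y axis from 0, scaled per gene) in the 4 gastrocnemius libraries (x axis), each a pool of 3 mice. Points are the values and bars 95% Wilson intervals for counting error. Amd1 and Smox step down from lean GRf/f to ob/ob GRmKO, Sat1 is lower in both ob/ob libraries, and Azin1 is flat.

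Per kilobase of the listed transcript, *Amd1* was the most abundant member in lean GRf/f muscle at 640 CPM per kb, followed by *Oaz1* at 263 and *Smox* at 150.0. *Oaz2* at 83.1 (80.3 to 86.1) and *Odc1* at 81.2 (78.6 to 83.9) were within counting error of each other. *Sat1* (18.4), *Sms* (16.6) and *Srm* (15.3) formed a lower set in which neighbors overlapped, and *Azin1* was lowest at 8.44 CPM per kb. In lean GRmKO muscle, *Amd1* (292, 288 to 296) and *Oaz1* (291, 284 to 299) were within counting error of each other. In the *ob/ob* libraries *Oaz1* came first, at 223 CPM per kb against 129 for *Amd1* in GRf/f and at 232 against 76.1 in GRmKO muscle. In *ob/ob* GRmKO muscle *Oaz2*, at 130.0, was also above *Amd1*, and *Sms*, at 28.6, was above *Smox*, at 22.3 CPM per kb. The order did not change with the longest transcript of each gene in any of the 36 ranks. This check could move few ranks, since the listed transcript was already the longest for most members. The exceptions were *Smox* (2270 against 2299 bases), *Oaz1* (1044 against 1071) and *Azin1* (4217 against 4871), which was already lowest.

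Obesity was first examined with muscle GR intact. In *ob/ob* against lean GRf/f muscle, *Amd1*, *Smox*, *Sat1* and *Odc1* were lower, and no member was higher, by at least 1.5-fold. A gene was called at this fold where 1 of the 2 libraries held 50 counts or more, with no test behind the call. Under this rule 4 of 9 members were called lower, where 12.3% of the 11375 genes compared were called lower, and 0 members were called higher, against 5.32% of all genes. Of all calls 30.3% were higher, against 47.1% with TMM and 48.8% with DESeq2 scaling. *Amd1* was 4.95-fold lower, a log2 change of -2.31 (-2.34 to -2.27), the 38th lowest value of all genes compared. *Smox* was 3.35-fold lower (log2 -1.75, -1.82 to -1.68), the 91st lowest. *Sat1* was 1.99-fold lower (log2 -0.99, -1.23 to -0.76). *Odc1* was 1.57-fold lower (log2 -0.65, -0.73 to -0.58), and this call was lost under edgeR TMM, DESeq2 and upper quartile scaling, where the change was -0.57 to -0.53. The other 5 members were within 1.5-fold, from -0.27 for *Srm* to 0.35 for *Sms*. The median of the members was -0.27 and that of the 14206 genes -0.11, and relative to the latter *Amd1* was at -2.19 and *Smox* at -1.63.

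Without GR in the myofibers, *Amd1*, *Smox* and *Sat1* were again lower in *ob/ob* muscle, *Sms* was higher, and *Odc1* did not follow. In *ob/ob* against lean GRmKO muscle, 4 of 9 members were called lower (*Amd1*, *Smox*, *Sat1* and *Srm*), where 20.7% of 11405 genes were, and 1 was called higher (*Sms*), where 5.05% were. These shares moved with scaling, since 19.6% of all calls were higher here, against 44.1% with TMM and 45.4% with DESeq2. *Amd1* was 3.84-fold lower (log2 -1.94, -1.99 to -1.90) and *Smox* 2.90-fold lower (log2 -1.54, -1.64 to -1.43). *Sat1* was 1.93-fold lower (log2 -0.95, -1.19 to -0.72). *Sms* was 1.76-fold higher (log2 0.81, 0.71 to 0.92), and 2.70% of the genes compared had a value at or above it. *Srm* was 1.54-fold lower (log2 -0.62, -0.86 to -0.39), and this call was lost under TMM, DESeq2 and upper quartile scaling and with the 50 most abundant genes left out of the library size. The change of *Odc1* was 0.06 (-0.04 to 0.16), and up to 0.28 under the other scalings. The median of all genes lay at -0.21, and relative to it *Amd1* was at -1.73, *Smox* at -1.33 and *Sms* at 1.02.

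The effect of GR deletion in the myofibers was examined next in lean mice. *Odc1*, *Amd1* and *Smox* were each lower by more than 2-fold in GRmKO muscle, while *Srm*, *Sms*, *Sat1*, *Oaz1* and *Azin1* differed by less than 1.2-fold. Under the same rule 3 of 9 members were called lower, where 3.95% of 11438 genes were, and 0 were called higher, against 5.57%. *Smox* was 2.31-fold lower (log2 -1.21, -1.27 to -1.15), the 103rd lowest value. *Odc1* was 2.22-fold lower (log2 -1.15, -1.23 to -1.06) and *Amd1* 2.19-fold lower (log2 -1.13, -1.16 to -1.11), the 120th and the 124th lowest. The promoters of these 3 genes are those printed above. *Oaz2* was 1.30-fold higher (log2 0.38, 0.31 to 0.44), under the threshold. The median of the members was -0.04 and that of all genes 0.05.

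In *ob/ob* mice, *Amd1* and *Smox* were again lower in GRmKO muscle, from levels that were already lower in *ob/ob* GRf/f muscle. Here 2 of 9 members were called lower, where 8.42% of 11212 genes were, and 0 were called higher, against 4.91%. *Smox* was 2.0-fold lower (log2 -1.0, -1.11 to -0.89), the 259th lowest value, and *Amd1* 1.70-fold lower (log2 -0.77, -0.82 to -0.72), the 525th lowest. *Odc1* was 1.35-fold lower (log2 -0.43, -0.52 to -0.35) and *Srm* 1.45-fold lower (log2 -0.53, -0.78 to -0.30). *Oaz2* was 1.44-fold higher (log2 0.53, 0.46 to 0.59) and *Sms* 1.36-fold higher (log2 0.44, 0.35 to 0.53). These 4 genes were under the threshold. The median of the members was 0.00 and that of all genes -0.04.

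**Figure D2:**
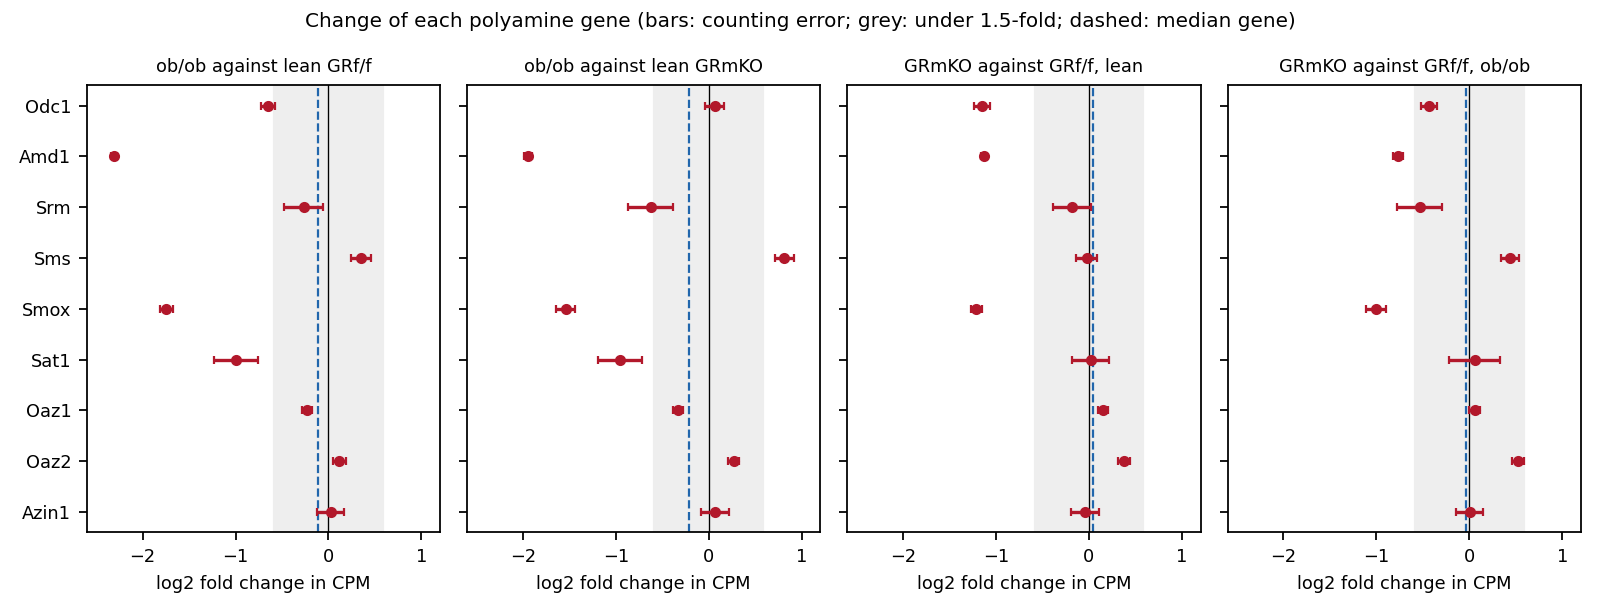
Log2 fold change in CPM (x axis) of each of the 9 genes (y axis) in the 4 comparisons, 1 panel each. Points are the values, bars 95% intervals for counting error, the gray band the range under 1.5-fold, and the dashed line the median of the 14206 genes. Amd1 and Smox lie left of the band in all 4 panels, and Odc1 lies left of it for ob/ob against lean GRf/f and for GRmKO against GRf/f in lean mice.

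**Figure D3:**
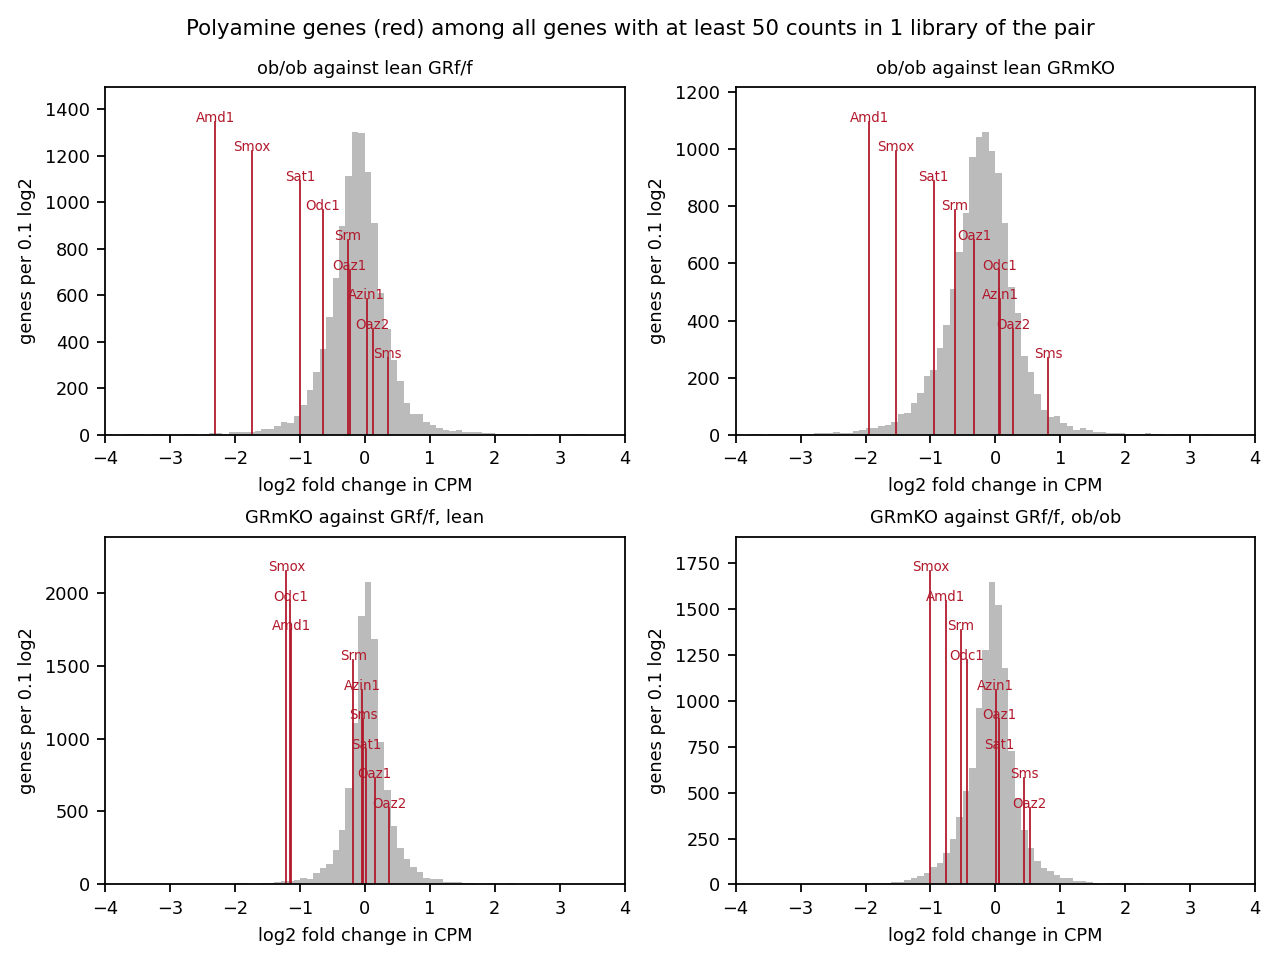
Distribution of log2 fold changes in CPM (x axis, bins of 0.1) of all genes for which 1 of the 2 libraries held 50 counts or more (gray bars, number of genes on the y axis), in the 4 comparisons. Red lines mark the 9 genes and their heights only separate the names. Amd1 and Smox stand in the lower tail of each panel, at -2.31 and -1.75 in the first, and Azin1 near the center.

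The 4 comparisons share libraries in pairs, so they are not independent of each other. From lean GRf/f to *ob/ob* GRmKO muscle, the libraries that differ in both factors, *Amd1* was 8.42-fold, *Smox* 6.72-fold, *Odc1* 2.12-fold, *Sat1* 1.91-fold and *Srm* 1.74-fold lower. *Sms* was 1.73-fold and *Oaz2* 1.56-fold higher between these libraries. The change with obesity was compared between genotypes as the difference of the log2 changes, GRmKO minus GRf/f. It was 0.71 (0.59 to 0.84) for *Odc1*, 0.46 (0.32 to 0.61) for *Sms*, 0.37 (0.31 to 0.42) for *Amd1*, 0.21 (0.09 to 0.33) for *Smox* and -0.36 (-0.67 to -0.05) for *Srm*. The intervals cover counting error only, and the difference could not be tested against the spread between mice. The antizymes differed less, by 0.15 (0.06 to 0.24) for *Oaz2* and -0.09 (-0.17 to -0.01) for *Oaz1*. For *Sat1* (0.04, -0.28 to 0.37) and *Azin1* (0.05, -0.16 to 0.25), counting error alone covered 0.

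Ratios of counts within a library do not depend on how libraries are scaled to each other. Transcript length was not removed from them, so only their differences between libraries are read. The counts of *Amd1* were 7.48 times those of *Oaz1* (7.28 to 7.70) in lean GRf/f, 3.08 times (2.99 to 3.17) in lean GRmKO, 1.78 times (1.72 to 1.84) in *ob/ob* GRf/f and 1.0 times (0.966 to 1.04) in *ob/ob* GRmKO muscle. The ratio of *Smox* to *Oaz1* was 1.24, 0.484, 0.436 and 0.209 in the same order. The order of libraries for both genes was thus the same when they were set against *Oaz1* alone. Between *Amd1* and *Smox*, the ratio was 6.02 (5.87 to 6.18), 6.36 (6.12 to 6.61), 4.08 (3.89 to 4.28) and 4.81 (4.50 to 5.14), so *Amd1* was the further down of the pair in the *ob/ob* libraries.

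The balance of antizyme and target messages differed between the genotypes. *Oaz1* and *Oaz2* together had 2.38 times the counts of *Odc1* (2.29 to 2.48) in lean GRf/f and 3.50 times (3.34 to 3.66) in *ob/ob* GRf/f muscle, against 6.22 times (5.90 to 6.56) and 5.71 times (5.43 to 6.01) in the GRmKO libraries. Both GRmKO libraries were above both GRf/f libraries. Antizyme protein also depends on the frameshift at the stop codon shown above, which RNA counts do not measure. Between the antizymes, the ratio of *Oaz2* to *Oaz1* was 0.559, 0.654, 0.714 and 0.988 in lean GRf/f, lean GRmKO, *ob/ob* GRf/f and *ob/ob* GRmKO muscle. The ratio of *Sms* to *Srm* was 3.00 (2.69 to 3.36), 3.34 (2.97 to 3.77), 4.60 (4.10 to 5.17) and 9.04 (7.93 to 10.4) in that order, so spermine synthase gained on spermidine synthase most in *ob/ob* GRmKO muscle.

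**Figure D4:**
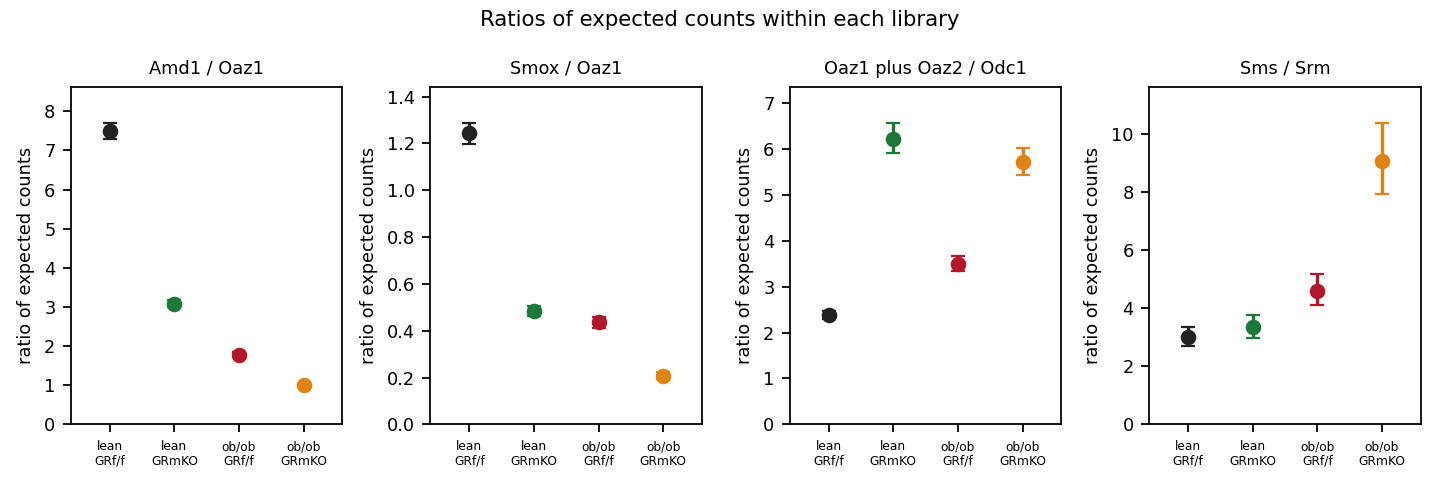
Ratio of expected counts of members within each library (y axis from 0, scaled per panel), for the 4 libraries (x axis). Points are the ratios and bars 95% exact binomial intervals for counting error. Amd1 over Oaz1 runs from 7.48 in lean GRf/f to 1.0 in ob/ob GRmKO, and the antizymes over Odc1 are highest in the GRmKO libraries.

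The genes around the pathway, a list of 28 for precursor supply, transport, hypusination, further enzymes and the *Myc* factors, gave 2 to 5 calls in a comparison. Of these, 23 had counts above 0 in all libraries, and 18 or 19 met the minimum count in a comparison. In *ob/ob* against lean GRf/f muscle, 0 of 18 were called higher, against 5.32% of all genes, and 2 lower, *Mat2a* and *Myc*, against 12.3%. *Mat2a* makes S-adenosylmethionine, the substrate of *Amd1*, and its level was 263 CPM (257 to 271) in lean GRf/f, 187 (181 to 193) in lean GRmKO, 133 (128 to 138) in *ob/ob* GRf/f and 123 (119 to 128) in *ob/ob* GRmKO muscle. Its order of libraries was that of *Amd1*, with log2 changes of -0.99 (-1.06 to -0.92) and -0.60 (-0.67 to -0.53) with obesity in GRf/f and GRmKO muscle. Between the *ob/ob* libraries, whose level intervals overlapped, the step was small, log2 -0.11 (-0.19 to -0.03), against -0.77 for *Amd1*. *Myc*, whose protein activates *Odc1*, was at 4.91, 5.69, 2.86 and 6.54 CPM, from 59.8 to 137 counts, and did not share the order of *Odc1*. In *ob/ob* against lean GRmKO muscle, 1 of 18 was called higher, the polyamine transporter *Slc22a3* (log2 1.17), and 3 lower, *Mat2a*, *Mtap* (-0.59) and *Eif5a2* (-0.89), against 5.05% and 20.7% of all genes. Relative to the median gene of this comparison, *Mat2a* was at -0.39 and *Mtap* at -0.38, under the threshold.

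In GRmKO against GRf/f muscle, the list gave 0 higher and 2 lower of 18 in lean mice, *Azin2* (log2 -0.99) and *Slc22a3* (-0.96), against 5.57% and 3.95% of all genes. In *ob/ob* mice it gave 2 higher of 19, *Sat2* (1.29) and *Myc* (1.19), and 3 lower, *Oat* (-0.82), *Azin2* (-0.86) and *Eif5a2* (-0.68), against 4.91% and 8.42%. The change of *Sat2* (0.53 to 2.03) rested on 22.6 counts in GRf/f and 55.1 in GRmKO muscle. The calls of *Slc22a3* shared the lean GRmKO library, at 43.1 counts, and those of *Eif5a2* the *ob/ob* GRmKO library, at 44.9. *Azin2*, a paralog of *Azin1*, was thus called in both backgrounds, from 76.6 and 37.0 counts in lean and 58.2 and 32.0 in *ob/ob* GRf/f and GRmKO muscle. *Oat*, for ornithine aminotransferase, which uses the same substrate as *Odc1*, was 167 CPM in both GRf/f libraries against 124 and 94.5 in the GRmKO libraries. *Eif5a*, whose protein carries hypusine made from spermidine, lay between 179 and 218 CPM. The list's medians were -0.08, -0.15, -0.06 and -0.11 in the 4 comparisons.

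Summed levels of adipocyte and of erythroid markers had the same order of libraries as *Amd1* and *Smox*. The adipocyte list, 6 genes with none at 0, summed to 977, 632, 564 and 348 CPM in lean GRf/f, lean GRmKO, *ob/ob* GRf/f and *ob/ob* GRmKO muscle. Of its genes *Cfd* and *Fabp4* had this order, while *Adipoq*, *Plin1*, *Cidec* and *Lep* were lower in lean GRmKO than in *ob/ob* GRf/f muscle. Within this list, the change of *Cfd* with obesity was log2 -4.21 in GRf/f and -4.02 in GRmKO mice, *Lep* was higher by 2.30 and 2.84, and *Adipoq* was at 81.6 against 80.5 and 48.4 against 44.4 CPM. Between genotypes, 5 of 6 were called lower in GRmKO muscle in both backgrounds. The erythroid sums given above with *Sat1* had the order of *Amd1*, as did *Hba-a1*, *Hba-a2*, *Hbb-bs* and *Hbb-bt* one by one. In both genotypes 5 of the 7 erythroid genes were called lower with obesity, and none was called between genotypes. Slow fiber sums, given above with *Sms*, ran in the reverse order of *Amd1*. All 9 slow fiber genes were called higher with obesity in GRf/f and in GRmKO muscle, against 5.32% and 5.05% of all genes. The part of fat cells, of blood and of slow fibers in the levels of *Amd1*, *Smox* and *Odc1* was not tested. Endothelial markers summed to 420, 497, 331 and 298 CPM and fibroblast markers to 3997, 4434, 6996 and 4055 CPM, each with none at 0 and with neither in the order of *Amd1*.

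The genes most like *Amd1* were taken as those with the smallest distance between log2 CPM values centered on each gene's mean over the 4 libraries. Among the 9067 other genes that reached 100 counts in every library, these were *Pck1* (distance 0.307), *Chac1* (0.383), *Ces1d* (0.402), *Smox* (0.513) and *Ifi205* (0.596). *Smox* was thus the fourth nearest gene, while *Sat1* ranked 202nd, *Srm* 891st, *Odc1* 1035th and *Sms* 8815th. *Pck1*, for the enzyme that makes phosphoenolpyruvate from oxaloacetate, was at 54.2, 28.9, 14.6 and 8.06 CPM in lean GRf/f, lean GRmKO, *ob/ob* GRf/f and *ob/ob* GRmKO muscle. *Chac1*, for a glutathione-degrading enzyme, was at 104, 42.7, 19.4 and 15.6 CPM, and *Ces1d*, for a carboxylesterase, at 54.1, 31.4, 15.4 and 6.78 CPM. The distance rests on 4 values per gene and says nothing of shared function or control.

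**Figure D5:**
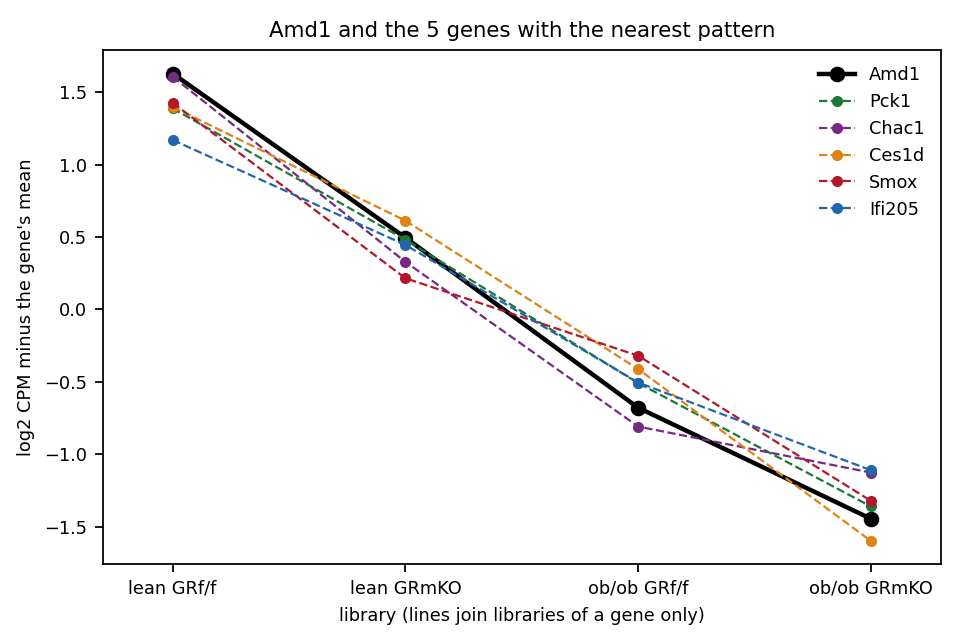
Log2 CPM minus the gene's mean over the 4 libraries (y axis) in each library (x axis) for Amd1 (black) and the 5 genes with the nearest pattern (dashed). Lines only join the libraries of a gene. All 6 genes step down in the same order, from lean GRf/f to ob/ob GRmKO.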

How the data were processed

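RNA-seq libraries of gastrocnemius muscle, 1 per group, were analyzed. Per the study's methods, the authors sequenced pooled RNA as paired-end reads, quantified protein-coding GENCODE transcripts (mm10) with Salmon v1.2.1, and imported them with tximport (lengthScaledTPM) in R v3.5.0. Where a gene name occurred more than once, the entry with most counts was retained, so a row may hold 1 transcript of a gene and not all of them. The deposited values are expected counts per gene name, not normalized between libraries. The libraries held 19897754 to 20959781 of them, and 3 counts equal 0.143 to 0.151 CPM.

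CPM values were computed over the genes with expected counts above 0 in all 4 libraries. Wilson intervals (levels) and exact binomial intervals (fold changes and ratios) used counts rounded to whole numbers, in scipy 1.17.1 under Python 3.11.15 (numpy 2.4.6, pandas 2.3.3), and cover counting error only. The authors had called genes by simulated technical replicates. With 1 library per group these give no spread between mice, and a change of 1.5-fold with 50 counts in 1 library of the pair was used here instead, with no p-value. The fold and interval code was tested on simulated data. Alternatives were edgeR 4.0.16 TMM factors and DESeq2 1.42.0 size factors (R 4.3.3, on rounded expected counts, for scaling only), upper quartile scaling, other library sizes and filters, a 2-fold threshold, no minimum count and, added after the data had been seen, changes relative to the median gene. Figures were drawn with matplotlib 3.10.9.

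All 9 genes are reported. Of the other lists, genes called in at least 1 comparison, the markers and *Nr3c1* and *Fkbp5* as a check of the deletion could be named, and the 5 genes nearest to the member with the widest range. Values of *Amd2*, *Eif5a* and *Oaz3* were given outside this rule, since none of them was called. The 9 genes and the lists were chosen with earlier results of these data known. Coordinates are from GENCODE M21 on GRCm38, in which all 22252 listed transcripts were found, 21684 under the same gene name. Promoters are from RefSeq (GRCm38.p6).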

Additional observations from a re-analysis of the deposited data

Results flagged for a closer look

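Some values had opposite signs in the groups compared, each resting on 1 library, and the difference was not tested against the spread between mice. In CPM as reported, at least 1 of the counting intervals includes 0 in each case, so the signs do not differ beyond counting error in that scaling. The change of *Odc1* with obesity was -0.65 (log2) in GRf/f and 0.063 (-0.04 to 0.16) in GRmKO muscle. Over all scalings and filters these changes were -0.65 to -0.53 and 0.06 to 0.28. No counting intervals were computed for the other scalings, so the *Odc1* signs were not compared with counting error there. With GR deletion, *Sms* was at -0.024 (-0.14 to 0.09) in lean mice and at 0.44 in *ob/ob* mice. For *Azin1* the values were -0.042 and 0.0034, and both counting intervals include 0.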

How the results depend on the processing

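The 36 changes of the 9 genes were recomputed under 8 other scalings or filters, and the calls also under a 2-fold threshold and with no minimum count. Of the 14 changes called, 12 kept their sign and call in every scaling and filter. *Odc1* in *ob/ob* against lean GRf/f muscle (-0.65 to -0.53) and *Srm* in *ob/ob* against lean GRmKO muscle (-0.62 to -0.41) did not keep their calls. Of all 36, 35 kept their sign, the exception being *Sat1* in lean GRmKO against GRf/f muscle (-0.04 to 0.02). At a 2-fold threshold, 2 members were lower in *ob/ob* against lean GRf/f, where 384 of 11375 genes were. In *ob/ob* against lean GRmKO, 2 members were lower and 0 higher, where 864 and 187 of 11405 genes were. In GRmKO against GRf/f lean muscle *Odc1*, *Amd1* and *Smox* were lower, where 162 of 11438 genes were. In GRmKO against GRf/f *ob/ob* muscle 1 member was lower, where 260 of 11212 genes were. Counts over all genes moved more. In *ob/ob* against lean GRf/f muscle, genes called higher numbered 917 with DESeq2 factors, 911 relative to the median gene, 215 at 2-fold and 1130 with no minimum count, and genes called lower 384 at 2-fold and 2352 with no minimum. In *ob/ob* against lean GRmKO muscle, genes called higher numbered 1123 with TMM, 1159 with DESeq2, 914 with upper quartile scaling, 1128 relative to the median gene, 187 at 2-fold and 1107 with no minimum, and genes called lower 1423 with TMM, 1396 with DESeq2, 1420 relative to the median gene and 864 at 2-fold. The share of calls that were higher was 30.3% in GRf/f and 19.6% in GRmKO mice as reported, 47.1% and 44.1% with TMM and 48.8% and 45.4% with DESeq2. In GRmKO against GRf/f lean muscle, higher calls numbered 185 at 2-fold and 1341 with no minimum, and lower calls 162 and 1105. In *ob/ob* muscle these were 185 and 1220, and 260 and 1737. No paired analysis was possible because each group had 1 library, and no library could be left out. Depth limited *Srm* and *Sat1* most, which rested on 225 to 443 counts.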

Other observations

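*Oaz3*, an antizyme gene known from testis, had 116 counts in the lean GRf/f library and was listed at 0 in the other 3. It was singled out after its values were seen, and as a row listed at 0 it entered no comparison.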
